A study of Rattus norvegicus with 5 samples.

Results

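Ucp1, Cfd, Cox8b and Lpl are 4 genes of brown and white fat that were followed in rat lung exposed through the trachea to EHC-93, an urban particulate matter sample. Every probe set that the platform annotation names for one of them was taken, which gave 8 of the 8740 probe sets: 2 for Ucp1, 1 for Cfd, 2 for Cox8b and 3 for Lpl. The 4 genes are 4 of 4736 named genes, and all 4 were among the 3667 that read above the floor, a scaled intensity of 173, on at least 1 array. They were picked because earlier results of these data had put 3 of them among the genes lower after dust, so their differences from the controls are given as a description, with no test.

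Lung RNA was hybridised to 5 arrays, 1 per group, each with a pool of equal RNA amounts. The early dust pool came from 2, 4 and 6 h after the dust was instilled, the intermediate dust pool from 15, 18 and 21 h and the late dust pool from 24, 32 and 40 h. The sham pool came from 2, 15 and 24 h after instillation of saline, and the untreated pool from 3 rats that were not instilled. The labels give no strain, sex, age, dose or number of rats in the instilled pools. As no group has a second array, no difference between 2 arrays carries a replicate error. The number of arrays limits the precision of every value. Median deposited intensities were between 261 and 299. All 10 alveolar and airway markers, among them the surfactant proteins, read above the floor on every array. Across the arrays the 5′ to 3′ signal ratio, a measure of RNA integrity, was between 9.07% (intermediate) and 43.1% (early) for beta-actin, and between 23.6% and 67.2% on the same arrays for GAPDH; its part in the results below was not tested.

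Brown adipocytes burn fatty acids to make heat. Their uncoupling protein Ucp1 lets protons re-enter the mitochondrial matrix without making ATP, and Cox8b is a subunit of cytochrome c oxidase, the last complex of the respiratory chain, in the form used by brown fat, heart and skeletal muscle. Cfd, adipsin or complement factor D, is a serine protease secreted in large amounts by white adipocytes that cleaves factor B in the alternative complement pathway. Lpl, lipoprotein lipase, frees fatty acids from circulating triglyceride at the capillary wall and is made by adipocytes, muscle and also by macrophages.

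The 250 bases before the annotated starts of Ucp1, Cfd and Cox8b are shown, 5′ to 3′ on the gene's own strand. They come from RefSeq on build GRCr8, with capitals on matches to the motifs searched. The promoter source held no entry for Lpl. The Ucp1 stretch is chr19:41721422-41721671, the Cfd stretch chr7:10465497-10465746 and the Cox8b stretch chr1:205408274-205408523, all on the minus strand.
Ucp1: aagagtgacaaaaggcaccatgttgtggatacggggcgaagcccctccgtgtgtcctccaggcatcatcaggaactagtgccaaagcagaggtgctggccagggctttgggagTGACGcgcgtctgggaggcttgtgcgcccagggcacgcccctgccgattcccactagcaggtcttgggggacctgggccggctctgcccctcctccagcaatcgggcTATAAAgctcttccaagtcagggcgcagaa
Cfd: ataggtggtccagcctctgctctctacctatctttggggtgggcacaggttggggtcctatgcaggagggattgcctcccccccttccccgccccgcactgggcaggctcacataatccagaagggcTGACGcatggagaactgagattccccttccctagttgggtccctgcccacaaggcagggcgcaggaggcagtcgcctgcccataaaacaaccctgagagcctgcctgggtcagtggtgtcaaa
Cox8b: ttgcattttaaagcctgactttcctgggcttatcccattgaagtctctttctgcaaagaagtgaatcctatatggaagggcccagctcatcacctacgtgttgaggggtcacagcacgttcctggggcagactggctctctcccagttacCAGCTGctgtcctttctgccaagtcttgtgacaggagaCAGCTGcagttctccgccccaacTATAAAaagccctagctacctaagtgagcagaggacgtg
The motifs were the TATA box TATAAA, the core TGACG bound by cyclic AMP response factors, the nuclear receptor half-site AGGTCA, the E-box CAGCTG and the inverted or direct CCAAT box, searched on both strands, with no overlap between matches here. TATAAA began at -30 in Ucp1 and at -39 in Cox8b, counted from the start, and is held by 12.9% of 33469 rat stretches of the same length. TGACG began at -137 in Ucp1 and at -123 in Cfd (18.2% of stretches), and CAGCTG began at 2 places in Cox8b, -100 and -62 (12% of stretches). The half-site AGGTCA, held by 14.1% of stretches, was in none of the 3 windows. Neither was CCAAT, held by 34%. No motif was shared by all 3 genes.

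Ucp1 was lower on every dust array than on both controls. Its main probe set, A04674cds_s_at, read 283, 251 and 139.5 in the early, intermediate and late dust pools, against 566 (sham) and 537 (untreated). The late value lay under the floor, so the fold there is a bound. The groups did not overlap, and the dust readings were lower at each later phase. The early reading was 2.00-fold below sham and 1.90-fold below untreated, just short of the 2-fold threshold for both controls. At the intermediate phase the gaps were 2.25-fold and 2.14-fold, just inside it, and at the late phase Ucp1 was at least 3.28-fold and 3.11-fold below. The second Ucp1 probe set, X03894_at, read 287, 212 and 224 on the 3 dust arrays, against 448 (sham) and 360.3 (untreated). It also had every dust array below both controls, with smaller gaps, and placed the lowest value on the intermediate rather than the late array. It passed 2-fold against both controls on no array, coming closest at the intermediate phase with 2.11-fold below sham and 1.70-fold below untreated.

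Cfd had 1 probe set, M92059_s_at, which read 422, 605 and 381 in the early, intermediate and late dust pools, against 943 (sham) and 1271 (untreated). Both controls lay above all dust arrays, and among the dust arrays the intermediate one was the highest. Cfd was 2.23-fold below sham and 3.01-fold below untreated at the early phase and 2.48-fold and 3.34-fold at the late phase. At the intermediate phase the gap was 1.56-fold to sham and 2.10-fold to untreated, so it passed against untreated alone. A suffix _s_at marks a probe set whose probes may be shared by more than 1 transcript, and Cfd has no second probe set to set beside it.

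Cox8b had the widest range of the 4 genes. The main probe set, X64827cds_s_at, read 545, 910.2 and 500.3 in the early, intermediate and late dust pools, against 1310.4 (sham) and 2634 (untreated), a 5.26-fold span. As for Cfd, the intermediate array was the highest of the dust arrays and still below both controls. Cox8b was 2.40-fold below sham and 4.83-fold below untreated at the early phase, and 2.62-fold and 5.26-fold at the late phase. At the intermediate phase it was 1.44-fold below sham and 2.89-fold below untreated. The second probe set, U40836mRNA_s_at, read 521, 558 and 671 on the dust arrays, against 762 (sham) and 1077 (untreated). Here too no dust array reached a control, but the order of the dust phases differed, with the late array highest and 1.14-fold below sham. This probe set was 2-fold below both controls on no array.

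Lpl did not have every dust array below both controls. L03294_at, its main probe set, read 4379, 4535 and 3738 in the early, intermediate and late dust pools, against 4241 (sham) and 4041 (untreated). The 5 values spanned 1.21-fold and dust and control arrays overlapped. L03294_g_at, designed from the same sequence, read 3345, 4778 and 3833 on the dust arrays, against 4344 (sham) and 4177 (untreated). It differed from its partner mainly on the early array, where it read below both controls and the partner above both; under the other scalings the partner lay between the controls there. The third probe set, rc_AI237731_s_at, is made from an expressed sequence tag and read 3597, 2027 and 1879.7 on the dust arrays, against 2780.0 (sham) and 2089 (untreated). On the early array it was 1.29-fold above sham and 1.72-fold above untreated, the highest reading of this probe set, while the intermediate and late arrays read below both controls. On the late array all 3 Lpl probe sets read below both controls, and did so under every scaling. With arrays scaled to the same median the gaps to untreated, the nearer control, were 1.08-fold, 1.09-fold and 1.11-fold. None of the 3 Lpl probe sets passed 2-fold against both controls in any phase. The plot of intensities by array shows all 8 probe sets.

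**Figure D1:**
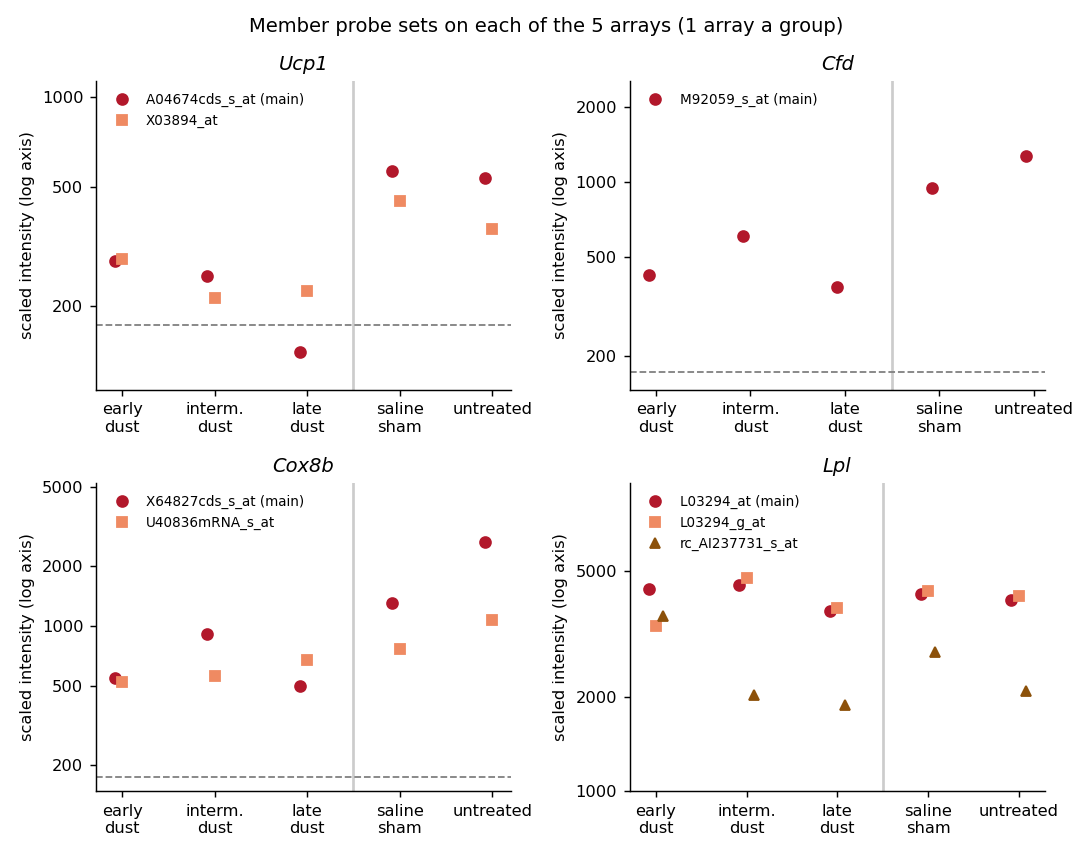
Scaled intensity (log axis) of every probe set of Ucp1, Cfd, Cox8b and Lpl on the 5 arrays, 1 point per array and no error bars because each group has 1 array. The dashed line is the floor of 173 and the grey line separates dust from control arrays. The Ucp1, Cfd and Cox8b probe sets read lower on every dust array than on both controls, and the Lpl probe sets overlap.

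By main probe sets, 2 of the 4 genes were at least 2-fold below both controls early after dust (Cfd and Cox8b), 1 at the intermediate phase (Ucp1) and 3 at the late phase (Ucp1, Cfd and Cox8b). None of the 4 was 2-fold higher than both controls; over all genes 2.54%, 0.873% and 0.6% were, in the same order of phases. Over all 3667 genes the same rule called 0.3%, 0.218% and 1.04% lower in that order, but the genes were chosen from these differences and nothing is read from the comparison. The 3 phases share both control arrays. All 5 probe sets of Ucp1, Cfd and Cox8b had every dust array below both controls by some amount, a pattern held by 6.03% of all genes. A call did not extend to second probe sets: asking every probe set of a gene to pass, an alternative chosen after seeing the data, left 1 gene on the early array and 1 on the late array, both times Cfd with its single probe set, and 0 on the intermediate array. Higher genes outnumbered lower ones on the early array and the reverse held on the late array, and this split moved with the scaling. Lower calls were 10.6%, 20% and 63.3% of all calls early, intermediate and late after dust, against 23.1%, 34.2% and 73.2% when arrays were scaled to the same 75th percentile and 18.6%, 40% and 75% with values as deposited. The median of all genes on the intermediate array differed from the controls' mean by 0.09 on the log2 scale, and by -0.04 with values as deposited. The counts of 2, 1 and 3 fat genes were the same under these scalings.

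**Figure D2:**
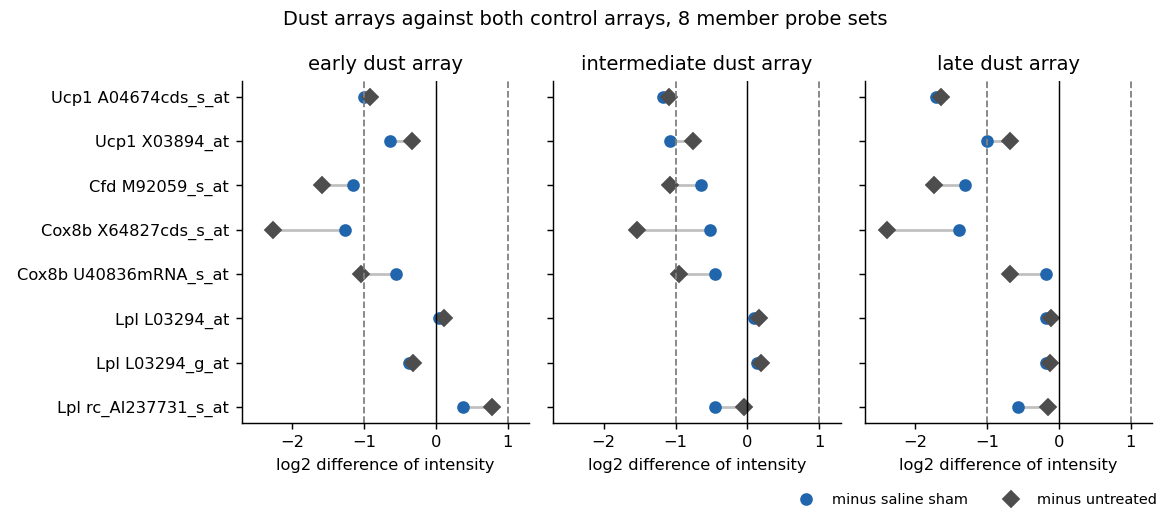
Log2 difference of intensity of each dust array from the saline sham (circles) and untreated (diamonds) array for the 8 probe sets; dashed lines mark 2-fold and a grey bar joins the pair. A probe set passes where both symbols lie beyond a dashed line, as Cfd and the main Cox8b probe set do on the early array, and values under the floor are set to it, as for Ucp1 on the late array.

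Saline against no instillation, a comparison in which no dust array enters, separated the genes. The main Cox8b probe set was 2.01-fold lower in the sham than in the untreated pool, with a log2 difference of -1.01, and the second gave -0.50. Cfd gave -0.43. Ucp1 went the other way by little, with 0.08 and 0.31 from its probe sets, and Lpl gave 0.07, 0.06 and 0.41. Over all genes 1.61% were at least 2-fold lower in sham than in untreated lung and 1.55% at least 2-fold higher, and Cox8b was among the lower ones; without a second array the gap has no error.

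Between phases, none of the 4 main probe sets was 2-fold away from both other dust arrays. The share of all genes that were 2-fold lower than both other phases was 0.709% early, 0.136% intermediate and 1.23% late after dust, and the share 2-fold higher was 1.77%, 0.436% and 0.109%. The late array gave a log2 difference from the early array of -0.71 for Ucp1, -0.15 for Cfd, -0.12 for Cox8b and -0.23 for Lpl. The Ucp1 value is a bound. The intermediate array differed from the early array by 0.52 for Cfd and 0.74 for Cox8b, against -0.17 for Ucp1. Second probe sets gave 0.10 for Cox8b and -0.43 for Ucp1, so the higher intermediate reading of Cox8b rests on its main probe set.

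The other genes of brown fat and heat production were not called. Of 28 further listed genes 15 were measured and 11 read above the floor; none was 2-fold lower or higher than both controls on any dust array. Their median difference from the controls' mean (log2) was -0.34 early, -0.00 intermediate and -0.07 late after dust, against -0.01, 0.09 and 0.07 over all genes. Fabp3, the fatty acid binding protein of heart and muscle, read 861, 1053 and 551 on the dust arrays, against 1090.0 (sham) and 1609 (untreated). It lay below both controls on each dust array, by 1.03-fold at the narrowest. Cpt1b, the muscle form of the enzyme that lets fatty acids into mitochondria, read 759, 1119 and 1082 on the dust arrays, against 1047 (sham) and 1239 (untreated), so the groups overlapped, though under the other 3 scalings every dust array lay below both controls. Slc27a1, a fatty acid transporter, was level at 1270.1, 1327 and 1574, against 1321 and 1283. Cidea, a lipid droplet protein of brown adipocytes named after its values were seen, read 429, 533 and 524 on the dust arrays, against 585 (sham) and 632 (untreated). With Fabp3 and the creatine kinase Ckmt2 it made 3 of 11 genes whose dust arrays all lay below both controls, against 6.03% of all genes. Slc27a2, a transporter and activating enzyme of very long-chain fatty acids named after its values were seen, was the 1 of 11 with every dust array above both, against 14.2% of all genes. It read 689, 601 and 1094 on the dust arrays, against 269 (sham) and 550.4 (untreated). The late gap was 4.07-fold to sham and 1.99-fold to untreated. With values as deposited the intermediate reading lay between the controls. The summed intensity of the 15 measured genes was 6367, 7394 and 7251 on the dust arrays, against 6525 (sham) and 8969.9 (untreated). Of the defining genes of brown fat, Dio2 lay under the floor on all 5 arrays. Adrb3 and Ucp3 of the same list, named after their values were seen, read above it on each. Adrb3 read 357, 445 and 476 on the dust arrays, against 244 (sham) and 412 (untreated). Ucp3 lay between the controls on each dust array, at 283, 254 and 336, against 188 (sham) and 345 (untreated).

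Genes of fat storage and adipocyte secretion gave the same count of 0. Of 29 listed beside Cfd, 19 were measured and 16 were above the floor, with medians of -0.06 early, -0.19 intermediate and -0.39 late after dust. Their summed intensity was 20988, 19869 and 14045 on the dust arrays, against 17227 (sham) and 19734 (untreated). On every array the largest single part of this sum was Plin2, which is described below. Plin2 was itself highest on the early and lowest on the late array, so the sum does not describe the list as a whole. Leptin, Lep, the adipocyte hormone of energy stores, read 1924, 2231 and 2090.0 on the dust arrays, against 2261 (sham) and 1846 (untreated). Lipe, hormone-sensitive lipase, read 1863, 1954 and 1684, against 1636 (sham) and 1682 (untreated). Lep overlapped between dust and control arrays. All 3 Lipe dust readings lay above both controls, as for 14.2% of all genes. The late one was level with untreated, and under the other scalings it was no longer above both. Plin2, a lipid droplet coat protein that many cell types make, was higher than both controls on the early and intermediate arrays and lower on the late array, at 9254, 8719.7 and 3708, against 5690.1 (sham) and 5777 (untreated); no gap to both controls reached 2-fold. Fabp4, the adipocyte and macrophage fatty acid binding protein, and Slc2a4, the insulin-responsive glucose transporter, were the 2 of 16 genes of this list with every dust array below both controls. Over all genes 6.03% held this pattern. Fabp4, named after its values were seen, read 723, 519 and 545, against 902 (sham) and 1839.7 (untreated). Plin1, the lipid droplet coat of adipocytes, lay under the floor on all 5 arrays, and adiponectin was not measured as a named gene, so the label of fat genes rests here on where the 4 genes are known to act and not on a full set of adipocyte markers. In whole lung RNA, fewer cells of a type and less RNA per cell cannot be told apart.

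Around Lpl, 13 of 26 further genes of lipoprotein handling and fatty acid uptake were measured and 11 were above the floor. None was called, with medians of -0.13, -0.03 and 0.07 in the early, intermediate and late dust pools. Fabp5, a fatty acid binding protein of macrophages and epithelia, read 9725, 10339 and 10495 on the dust arrays, against 6402 (sham) and 4701 (untreated), above both controls in each phase and below 2-fold against sham. Apoe, the remnant apolipoprotein, and Lipa, the lysosomal acid lipase, each overlapped between dust and control arrays, although under quantile normalization every dust array lay below both controls for both genes and under the other 2 scalings for Lipa: Lipa read 5400.2, 5821 and 5519, against 6119 (sham) and 5736 (untreated), and Apoe 16299.9, 18828 and 22672, against 21603 and 19583.

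Ucp1 and Cox8b belong to larger mitochondrial families. Of 11 other cytochrome c oxidase subunits above the floor none was called, and their medians were -0.36 early, 0.25 intermediate and 0.16 late after dust. None of the 11 lay as far below either control as the main Cox8b probe set on any dust array. Cox8b was picked as lower after dust on these arrays, so nothing is read from this. The second Cox8b probe set did not stand apart in this way. Against sham it gave -0.549, -0.450 and -0.183 (log2) early, intermediate and late after dust. The lowest of the 11 subunits gave -0.596, -0.454 and -0.638. Cox6a2, the heart and skeletal muscle form of its subunit, named after its values were seen, read 1574, 2482 and 1528 on the dust arrays, against 2379 (sham) and 3410.1 (untreated). Like the main Cox8b probe set it was highest in untreated lung and, among the dust arrays, on the intermediate one, with log2 differences from untreated of -1.12, -0.46 and -1.16. The intermediate reading lay above sham, and below it under the other 3 scalings. Cox8a, the form of this subunit used in most tissues, read 12854, 18432 and 18935 on the dust arrays, against 15215 (sham) and 15160.4 (untreated). Cox4i1 and Cox6a1, nuclear-encoded subunits used in most tissues, also had their lowest reading on the early array, and their highest on the intermediate array. Among 10 other uncoupling proteins and carriers none was called, with medians of -0.07, 0.26 and 0.36. Ucp2, the uncoupling protein of macrophages and many other cells, read 10104, 14354 and 14779 on the dust arrays, against 11046 (sham) and 10973 (untreated), so that it was above both controls on the later arrays, where Ucp1 was lowest. Of 16 fatty acid oxidation genes none passed, with medians of -0.20, 0.10 and 0.10, and of 12 fatty acid and triglyceride synthesis genes none passed, with medians of -0.04, 0.07 and -0.09. In the alternative complement pathway, in which Cfd acts, 4 other genes were measured: Cd55 was higher on the early and C3 on the intermediate array, and none was lower. Over all genes 2.54% were called higher on the early and 0.873% on the intermediate array.

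**Figure D3:**
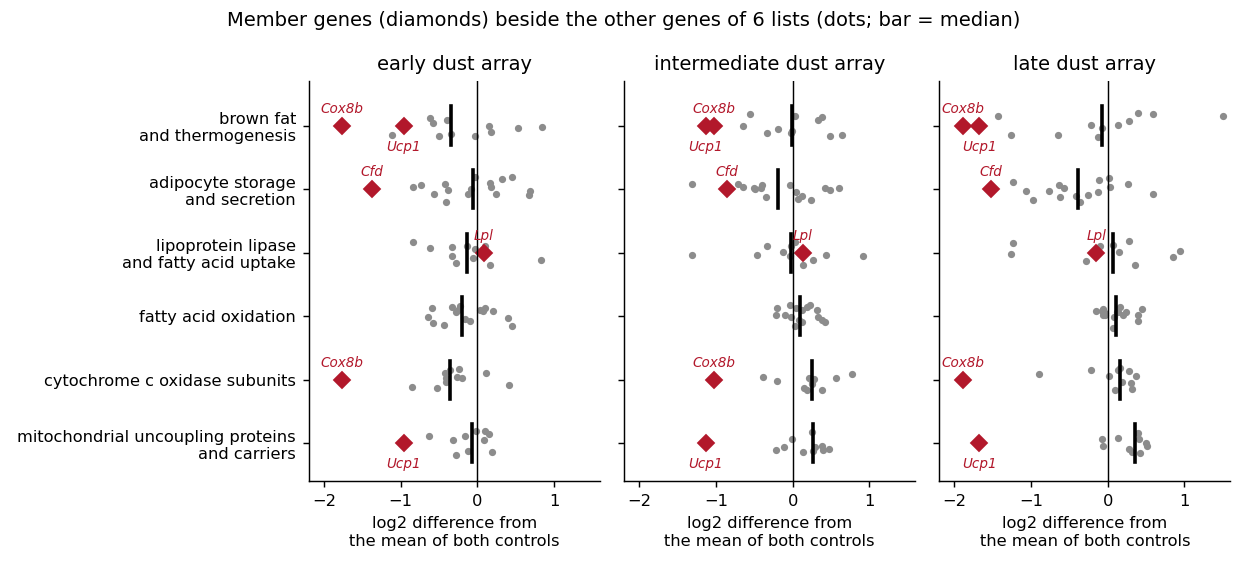
Log2 difference of each dust array from the mean of both controls for the 4 genes (red diamonds, main probe sets) and the other genes above the floor of 6 lists (grey dots, spread vertically for legibility; black bars are medians of the grey dots). Ucp1, Cfd and Cox8b lie left of their lists' medians in all 3 phases and Lpl lies near 0. Ucp1, Cfd and Cox8b were picked as lower after dust on these arrays, so nothing is read from their place.

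Cardiac muscle genes, which rat lung holds in the walls of its pulmonary veins, read over the arrays in an order close to that of Cox8b and Cfd. The orders differed in the place of the intermediate array. It lay above sham for the cardiac sum and below sham for Cfd and the main Cox8b probe set. Of 17 measured cardiac markers 14 were above the floor. Their summed intensity was 27025 early, 47159 intermediate and 20154 late after dust, against 38618 (sham) and 69458 (untreated). None was called on the early and intermediate arrays and 3 were lower on the late array, the atrial light chain Myl7, troponin I Tnni3 and Actn2. Over all genes 0.3%, 0.218% and 1.04% were called lower on the early, intermediate and late arrays. Measured from the untreated array, the median of the 14 was -1.33, -0.54 and -1.76 for the early, intermediate and late dust pools and -0.79 for the sham pool. Cox8b gave -2.27, -1.53, -2.40 and -1.01, and Cfd -1.59, -1.07, -1.74 and -0.43 in the same order of arrays. Both were low on the early and late arrays and less so on the intermediate array, as the cardiac list was. The second Cox8b probe set, at -1.05, -0.95, -0.68 and -0.50, was not lowest on the late array. Ucp1 gave -0.92, -1.09, -1.64 (a bound) and 0.08, with no higher reading on the intermediate than the early array and none below untreated on the sham array, where 13 of the 14 cardiac markers were below untreated. Against sham, 12 of 14 cardiac markers were level or higher on the intermediate array (median 0.23), where Ucp1 was -1.17, Cfd -0.64 and Cox8b -0.53, each below all 14. That count depended on the scaling. Under each of the other scalings the cardiac markers Myl4, Ckm and Csrp3 also lay below both controls on the intermediate array. Myl7 did so under quantile normalization alone. Whether muscle content had a part in the Cox8b and Cfd values was not tested. The sham array also lay below the untreated array for 10 of the 11 other brown fat genes (median -0.56) and for 12 of the 16 adipocyte genes (median -0.34), against 1994 of 3667 genes overall (median -0.04).

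**Figure D4:**
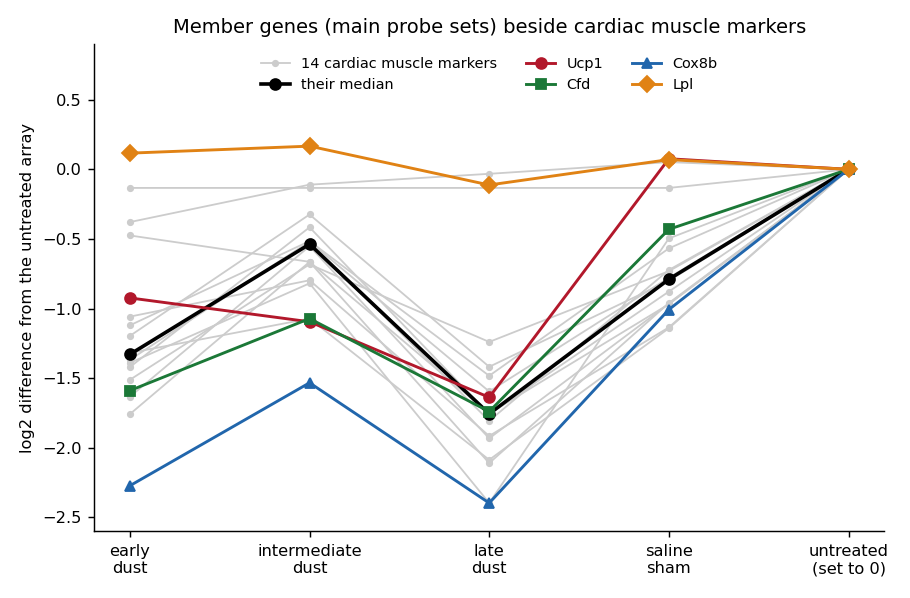
Log2 difference of each array from the untreated array for the main probe sets of the 4 genes (coloured), 14 cardiac muscle markers (grey) and their median (black); lines join the readings of 1 gene and do not stand for time, and values under the floor are set to it. Cox8b, Cfd and the cardiac median are lower on the early and late than on the intermediate array, Ucp1 is near 0 on the sham array and lower on all dust arrays, and Lpl is within 0.17 of the untreated array.

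The genes most like each member over the 5 arrays were found by the root mean square distance between log2 profiles after subtracting each gene's mean, among 3666 other genes. Nearest to Cfd were Pgam2, the muscle phosphoglycerate mutase (distance 0.18), Ckmt2, the mitochondrial creatine kinase of sarcomeres (0.20), and Calml4 (0.23), against a median distance of 0.71. Pgam2 read 435, 792 and 388 on the dust arrays, against 859 (sham) and 1248 (untreated). Nearest to Cox8b were Cfd itself (0.25), Ckmt2 (0.27) and the retinol carrier Rbp4 (0.30), against a median of 0.91. Ckmt2 read 492, 725 and 395 on the dust arrays, against 775 (sham) and 1463 (untreated). Nearest to Ucp1 were the sodium-calcium exchanger Slc8a2 (0.23), the acetylcholine receptor subunit Chrne (0.26) and the RNA-editing enzyme Adarb1 (0.28), against a median of 0.72. Cfd came next in rank 4 and Cox8b in rank 95. Ucp1, Cfd and Cox8b were picked as lower after dust on these same arrays, so nothing is read from their nearness to each other. Slc8a2 was dim, at 226 on the early array and 184 on the late array and under the floor on the intermediate array, against 394 (sham) and 422 (untreated). Chrne lay under the floor on the intermediate and late arrays, and Adarb1 on the late array, as Ucp1 did. Values under the floor were set to it before distances were taken. Lpl was nearest to Dact2, Cdk11b and Crlf2, with distances of 0.02, 0.04 and 0.05, against a median of 0.25. Distances were not scaled to a gene's range, and Lpl had the smallest range of the 4 genes. The other 3 fat genes stood at ranks 3579 to 3646 in its list, from which nothing is read either.

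Averaging the 3 dust arrays against the sham and untreated arrays is the one split with more than 1 array on each side. Limma's moderated test with Benjamini-Hochberg adjustment called 0 of 3667 genes higher and 0 lower (0%), with 256 genes (6.98%) at an unadjusted p under 0.05; no other tool was run. No listed fat gene therefore passed. Phase differences and the gap between sham and untreated count as error in that fit, and its values for the 4 genes are not used.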

How the data were processed

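The deposited table holds a linear intensity for each of 8799 probe sets on every array; the sources used here do not name the algorithm. That the authors scaled the arrays is read from the values, whose 2% trimmed means were 1001.38 to 1001.63. Apart from the 5′ to 3′ ratios, 59 control probe sets were not used. Of the remaining 8740, 7006 had 1 gene symbol in the platform annotation, 308 had several and 1426 were not listed; the last 2 kinds stayed unnamed. Of the identifiers, 6985 matched a RefSeq table of GRCr8, which changed no symbol.

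Intensities were scaled to the same median (factors 0.931 to 1.07), floored at the 40th percentile (173) and taken to log2. The probe set with the highest mean over the 5 arrays stood for a gene (main probe set). A call needs at least 2-fold from both control arrays. Limma 3.58.1 (R 4.3.3) fitted dust against control arrays, threshold 0.05; the steps were tested on simulated data. Its p-values reflect the spread among the 5 arrays alone. Of 238 symbols in 15 lists, 162 were measured; list results leave out Ucp1, Cfd, Cox8b and Lpl. Named genes are up to 4 per list that passed, else the 3 of highest mean, and the 3 nearest profiles per gene. The 4 genes and the lists were chosen with earlier results of these data known, and the motifs with the sequences in view. Alternatives were other scalings, floors, probe set choices, a 1.5-fold threshold and leaving out arrays.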

Additional observations from a re-analysis of the deposited data

Results flagged for a closer look

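Lpl was the gene whose probe sets lay above both controls in one dust phase and below both in another, by readings of 1 array each; the differences between phases were not tested. For L03294_at the early array was 0.23 and the intermediate array 0.28 above the late array on the log2 scale. For L03294_g_at the intermediate array was 0.51 above the early and 0.32 above the late array. For rc_AI237731_s_at the early array was 0.83 above the intermediate and 0.94 above the late array. For the first and second of these the opposite positions depended on the scaling. With values as deposited, scaled to the 75th percentile or quantile normalized, neither had a dust array above both controls; the early difference of L03294_at from the controls' mean was then -0.01, -0.04 and -0.05, against 0.08 with arrays scaled to the same median. Its intermediate difference was -0.04, 0.01 and -0.11, against 0.13, and that of L03294_g_at -0.00, 0.05 and -0.06, against 0.17. The third probe set had the early array above and the other 2 below both controls under every scaling. Each Lpl probe set had the late array below both controls under every scaling. The probe sets do not give one order of phases: the early array was the highest reading of the third probe set and the lowest of the second.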

How the results depend on the processing

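The counts of fat genes 2-fold below both controls were 2 early, 1 intermediate and 3 late after dust, also with values as deposited, scaled to the 75th percentile or quantile normalized, with the floor at the 20th percentile, and with main probe sets chosen on the control arrays alone. With the floor at the 60th percentile, an intensity of 458 that lies above every dust reading of Ucp1, they were 2, 0 and 2. At 1.5-fold they were 3, 2 and 3. Leaving out one control array gave 2 to 2, 1 to 3 and 3 to 3, the 3 on the intermediate array coming without the sham array, where Cfd and Cox8b joined Ucp1. When every probe set had to pass, a setting added after seeing the data, the counts were 1, 0 and 1. The limma count was 0 under each scaling, floor and probe set choice and 0 to 0 when one array was left out. The median difference of the other brown fat genes, averaged over the dust arrays, was 0.05 and took both signs, from -0.10 to 0.05, so it has no settled direction; that of the adipocyte genes was -0.13, and -0.25 to -0.06 elsewhere. Of 144 differences of single probe sets under other settings 113 moved by less than the gap between the controls divided by the root of 2, 31 moved more and no called one changed sign; the uncalled Lpl differences that did are given above. All 5 probe sets of Ucp1, Cfd and Cox8b kept every dust array below both controls under the 4 scalings. No paired analysis was possible because each group has 1 array. Dim signal limits Ucp1 most, whose late reading is only a bound.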

Other observations

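Markers of other cell types gave the counts below of genes 2-fold away from both controls, with medians as log2 differences from the mean of the controls. Over all genes 2.54%, 0.873% and 0.6% were higher and 0.3%, 0.218% and 1.04% lower, early, intermediate and late after dust. Of 6 macrophage markers above the floor, 1, 1 and 4 were higher at the early, intermediate and late phase (medians 0.05, 0.82 and 1.52), and none was lower. Genes that macrophages also make differed from one another. Fabp4 was below both controls on each dust array, and Lpl did not share the order of the macrophage markers. Fabp5 was above both controls on each dust array, and Ucp2 on the intermediate and late arrays. Whether macrophages had a part in these values was not tested. Of 7 endothelial markers, Cav1 was higher on the early and lower on the intermediate array and none was called on the late array (medians 0.28, -0.06 and 0.22). No alveolar or airway marker was called among 10 (medians 0.03, 0.03 and 0.21). No skeletal muscle marker was called among 10 (medians -0.21, 0.14 and -0.12), while 14 cardiac markers had medians of -0.91, -0.17 and -1.29. No erythroid marker was called among 3 (medians 0.33, -0.28 and 0.22) and no reference gene among 6 (medians 0.01, 0.32 and 0.23).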
